A study of Mus musculus with 6 samples.

Results

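Cytochrome P450 genes were read in the hearts of 6 male mice, 3 labelled ERRα-null (KO) and 3 wild-type (WT). Members were all probe sets of the array whose single gene symbol begins with Cyp and a digit. There were 73 such genes on 98 probe sets, among 18193 genes with a single symbol, and a gene with several was represented by the probe set with the highest mean signal over the 6 hearts. A mean signal of 20 or more counted as expressed, which held for 15 genes. Another 16 genes lay below 20 but passed the filter on dim probe sets and were tested, and 42 were too dim to be tested, with means from 1.25 to 8.47 and no single heart above 21.5. The expressed genes were thus chosen by their mean signal over all 6 hearts, and the family was picked for description because Cyp2e1 was already known to be among the genes that rose in these hearts. Its own difference is given as a description for that reason.

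P450 enzymes are haem proteins that insert oxygen into lipophilic molecules, with electrons supplied by a reductase at the endoplasmic reticulum or by an adrenodoxin chain in mitochondria. Families 1 to 3 are known mostly for oxidising drugs, toxicants and arachidonic acid, family 4 for hydroxylating fatty acids, and the remaining families for sterols, bile acids, steroid hormones, vitamin D and retinoic acid. Most are liver enzymes, and the heart is known to hold a small subset. ERRα, the product of Esrra, is a nuclear receptor without a known natural ligand that activates genes of mitochondrial energy metabolism.

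All hearts were taken under basal conditions. The KO mice and the WT mice 2 and 3 were labelled C57BL/6J, aged 2 to 3 months, while the labels of WT 1 give sex and organ source but neither strain nor age, and a comment in its array header numbers it as WT 3. The labels do not say how the Esrra allele was made or whether WT mice were littermates. Each heart went on its own Affymetrix array, and values are MAS5 signals on a linear scale. Median signals were 13.4 to 13.7 in the KO arrays and 12.4 to 16 in the WT arrays, WT 1 being the brightest. The cardiomyocyte genes Myh6, Myl2, Tnnt2, Tnni3, Actc1 and Ryr2 were bright in every heart, and 0 of 6 passed the test between the groups. Esrra gave 180.1, 24 and 18 in the hearts labelled KO 1 to 3, against 368.1, 394.4 and 349.1 in WT 1 to 3. The library labelled KO 1 thus kept 48.6% of the mean WT signal and goes against its label, so results are given with and without it where they rest on it.

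Of the 15 expressed P450 genes, 2 were called higher in the hearts labelled KO, Cyp2e1 and Cyp2s1, 0 were called lower and 13 did not pass (two-sided limma test of log2(signal + 16), p adjusted by Benjamini-Hochberg over 12946 genes, threshold 0.05). Over all genes tested 2.9% were called, 1.77% higher and 1.13% lower. With quantile normalization the same 2 members were called, against 3.44% of all genes (2.02% higher, 1.42% lower), and without KO 1 there were 3, with Cyp2f2 added, against 3.99% of all genes (2.37% higher, 1.61% lower). At an unadjusted p under 0.05 by limma there were 6 of the 15, and 1624 of all 12946 genes tested. The signals of the hearts labelled KO and of the WT hearts did not overlap for 8 of the 15, against 16.2% of all genes tested. Neither that count, nor the counts of called genes, nor the median given below is independent of how the 15 were chosen. Cyp2e1 is also the gene for which the family was picked. Cyp2f2, Cyp2s1, Cyp39a1 and Cyp2c38 reached 20 through the KO mean and had WT means below it, Cyp51 and Cyp4a31 reached it through the WT mean, and the other 9 had group means of 20 or more in KO and in WT. The median log2 difference was 0.16 for the 15 and -0.028 for all genes.

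**Figure D1:**
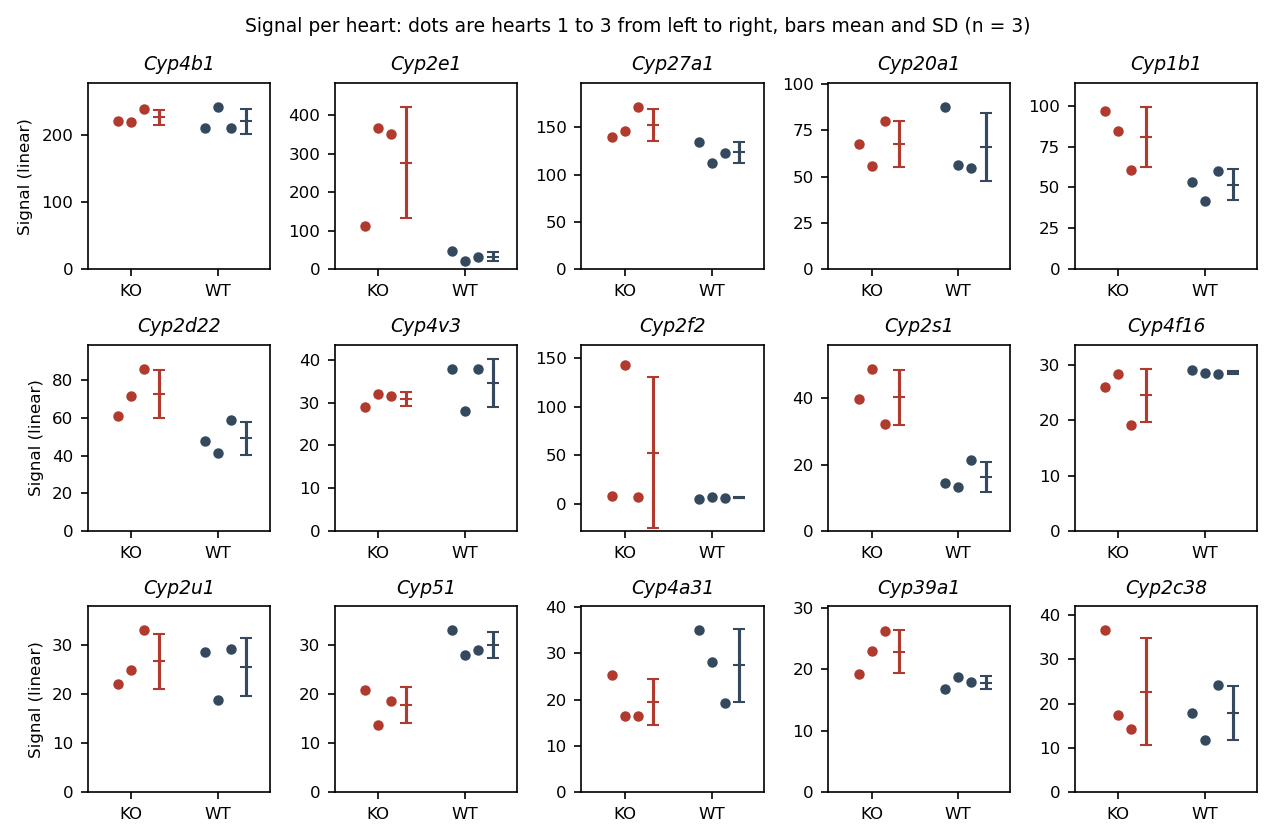
Signal (linear scale, vertical axis) of the 15 expressed P450 genes in each heart, with hearts labelled KO at the left of each panel and WT hearts at the right; bars are the mean and SD of 3 hearts. Cyp2e1 stood at 111.4 to 366.4 in the hearts labelled KO and 21.8 to 47.1 in WT, Cyp2f2 was high in KO 2 alone at 142.3, and the Cyp4b1 points of the groups overlapped.

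Cyp2e1, which oxidises ethanol, acetone and other small molecules and is known in mice from liver and white fat, had signals of 111.4, 366.4 and 351.6 in KO 1 to 3, against 47.1, 21.8 and 31.4 in WT 1 to 3. All 3 hearts labelled KO were above all 3 WT hearts, and KO 2 and KO 3 were about level with each other and far above KO 1. The mean was 276 ± 143 in the hearts labelled KO and 33.4 ± 12.8 in WT (SD, n = 3 each), an 8.27-fold ratio of means. On the log2 scale with 16 added the difference was 2.44 (SE 0.234, 95% interval 1.96 to 2.91), and without KO 1 it was 2.95. With robust empirical Bayes, which lets a gene with a large spread keep its own variance, the SE was 0.533 and the adjusted p by limma 0.13, so the call was lost. Cyp2e1 has a single probe set on this array.

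Cyp2s1, a P450 known from epithelia outside the liver, had signals of 39.7, 48.9 and 32.2 in KO 1 to 3, against 14.4, 13.1 and 21.3 in WT 1 to 3. Every heart labelled KO was above every WT heart, and KO 1 lay between the other two. The mean was 40.3 ± 8.36 in the hearts labelled KO and 16.3 ± 4.41 in WT (SD, n = 3 each), and the log2 difference was 0.80 (SE 0.196, limma adjusted p = 0.0105). It was at 0.80 without KO 1 as well, with a limma adjusted p of 0.0177. The call was lost without KO 2 (log2 difference 0.69, adjusted p = 0.113), without WT 1 (0.76, adjusted p = 0.10) and with no filter on dim probe sets (0.80, adjusted p = 0.141), all by limma.

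The sequences around the annotated starts of Cyp2e1, Cyp2s1 and Cyp2f2 are shown because these genes had the largest differences of the expressed members, and because an ERRα-null heart raises the question whether they carry an ERR site close to the start. Each runs 5′ to 3′ from 250 bases before to 50 bases after the start, from RefSeq on GRCm38.p6, with capitals for matches to the motifs searched on either strand. The motifs were a single form of the ERR response element, the nuclear receptor half-site that also ends it, and a TATA box.
Cyp2e1, chr7:140763569-140763868, plus strand: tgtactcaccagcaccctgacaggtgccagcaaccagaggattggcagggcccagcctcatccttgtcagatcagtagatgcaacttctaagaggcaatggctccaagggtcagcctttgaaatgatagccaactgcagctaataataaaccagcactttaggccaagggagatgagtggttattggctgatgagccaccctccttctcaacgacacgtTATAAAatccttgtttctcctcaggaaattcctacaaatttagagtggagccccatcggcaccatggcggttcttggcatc
Cyp2s1, chr7:25816476-25816775, minus strand: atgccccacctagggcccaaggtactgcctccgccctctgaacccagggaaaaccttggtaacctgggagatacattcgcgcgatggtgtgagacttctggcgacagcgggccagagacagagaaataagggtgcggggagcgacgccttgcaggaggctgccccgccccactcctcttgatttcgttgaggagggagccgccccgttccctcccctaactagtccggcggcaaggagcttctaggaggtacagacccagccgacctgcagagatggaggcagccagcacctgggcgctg
Cyp2f2, chr7:27119705-27120004, plus strand: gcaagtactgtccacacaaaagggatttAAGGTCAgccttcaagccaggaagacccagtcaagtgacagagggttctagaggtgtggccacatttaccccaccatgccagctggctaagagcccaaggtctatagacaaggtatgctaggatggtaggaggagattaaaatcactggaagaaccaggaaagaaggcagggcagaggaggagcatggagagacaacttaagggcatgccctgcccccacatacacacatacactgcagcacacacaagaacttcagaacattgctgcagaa

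RefSeq windows were matched for 11 of the 15 expressed genes. The full ERR element was searched in the form TCAAGGTCA only. That form was in 0 of these 11 windows, and in 0.423% of 32851 windows of all genes. The half-site AAGGTCA, which that form contains, was in 1 of the 11 and in 4.72% of all windows. The match was in the window of Cyp2f2, from 222 to 216 bases before the start. There the half-site is preceded by the bases tt, and other forms of the full element were not searched. TATAAA was in 2 of the 11, those of Cyp2e1 and Cyp2c38, from 31 to 26 bases before the start in each, and in 13.6% of all windows. A match or its absence describes these letters in this window and nothing about binding.

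Adipoq, which encodes the adipocyte hormone adiponectin, was set beside each expressed member in each heart. Adipoq had signals of 54, 390.7 and 323 in KO 1 to 3, against 22.3, 15.7 and 17 in WT 1 to 3. Relative to its own WT mean Cyp2e1 was at 3.33-fold in KO 1, 10.96-fold in KO 2 and 10.52-fold in KO 3, and Adipoq at 2.95-fold, 21.3-fold and 17.6-fold in the same hearts. The hearts thus stood in the same order for these genes, KO 2 highest, KO 3 next and KO 1 lowest of the hearts labelled KO. In WT too Cyp2e1 and Adipoq shared an order, WT 1 being highest and WT 2 lowest. WT 1 was also the brightest array, at a median signal of 16. Other adipocyte markers did not share the WT order. Car3 gave 29.7, 42.8 and 67.8 in WT 1 to 3, although it had the Adipoq order in KO 1 to 3, at 235, 1331.5 and 1147.7. Cidec, Retn and Pck1 were highest in WT 1 but lowest in WT 3.

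Expressed as log2(signal + 16) minus that of Adipoq and centred on WT, Cyp2e1 was at 0.36, -0.59 and -0.38 in KO 1 to 3, against 0.22, -0.24 and 0.024 in WT 1 to 3. The groups overlapped and the difference was -0.20 (two-sided exact permutation test over 20 regroupings, p = 0.6, adjusted over 15 members p = 0.6). For the other members the difference ran from -1.64 for Cyp2f2 to -3.09 for Cyp51, and 13 of the 15 had groups that did not overlap, with an exact p of 0.1, the smallest that 3 against 3 hearts can give. Cyp2s1 was at -0.24, -2.55 and -2.72 in KO 1 to 3, against -0.24, -0.03 and 0.27 in WT 1 to 3, with KO 1 inside the WT range. Since Adipoq itself differed by 2.64 on this scale, a gene with no difference between the groups lies near the same size below 0. The count of 13 is therefore not a result about the P450 genes, and the share over all genes was not counted. Without KO 1, an alternative chosen after seeing the data, all 15 had separate groups, Cyp2e1 among them at -0.48.

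Of 13 adipocyte markers 11 were measured and 10 tested, of which 6 were called higher in the hearts labelled KO, against 1.77% of all genes, 0 lower and 4 neither. Without KO 1 the lipid droplet gene Cidea was called lower (limma adjusted p = 0.044, against 0.0667 with all hearts and 0.139 with quantile normalization). Car3, which encodes carbonic anhydrase III, Pck1 and Ucp1 were among the 6, with Adipoq, Cidec and Retn. Pck1, an enzyme of glyceroneogenesis, gave 10.5, 51.3 and 35.9 in KO 1 to 3, against 6, 2.8 and 1.2 in WT 1 to 3. With quantile normalization Adipoq and Car3 passed, and Cidec, Retn, Pck1 and Ucp1 did not (limma adjusted p between 0.0513 and 0.18). Without WT 1 only Car3 of the 6 passed (limma adjusted p = 0.0271, and 0.0617 for Adipoq). The Adipoq log2 difference was 2.72 in that fit, against 2.64 with all hearts. Without KO 2 Cidec, Retn and Ucp1 did not pass (limma adjusted p = 0.239, 0.392 and 0.639), nor did Cidec without KO 3, WT 2 or WT 3. The markers that other heart cells also express, Fabp4, Lpl and Lipe, did not pass, with log2 differences of -0.056, -0.095 and 0.037, and the leptin gene Lep stayed at 6.9 or below in every heart. The summed signal of the list was 11901 to 13453 in the hearts labelled KO and 11755 to 13014 in WT, most of it from Fabp4 and Lpl. Of 10 hepatocyte markers 4 were tested and 0 passed, and the albumin gene Alb was at 14.9 or below in every heart. Ahsg, which encodes the liver plasma protein fetuin-A, gave 40.5, 20.5 and 28.9 in KO 1 to 3, against 11.1, 9.6 and 18.8 in WT 1 to 3, with no overlap (0.65 on the log2 scale, limma adjusted p = 0.0907, and 0.395 without KO 1). In whole hearts more cells of a type and more RNA per cell cannot be told apart. The part of fat in the Cyp2e1 difference was not tested.

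By Pearson r of log2(signal + 16) over the 6 hearts, the genes most like Cyp2e1 among those tested were Ces1d (0.997), Nbl1 (0.996), Gnai1 (0.995), Nt5e (0.994), Zfp30 (0.993) and Cabcoco1 (0.993). Adipoq was at 0.983, the place 18 of all genes, and Car3 at 0.969. These values describe 6 points that fall into 2 groups and carry no test. Ces1d, a carboxylesterase known from fat, liver and lung, gave 451.2, 608.5 and 589.5 in KO 1 to 3, against 363.4, 330 and 328.4 in WT 1 to 3. Among the tested P450 genes the dim Cyp2c68 came nearest, at 0.986, with signals of 12.6, 17 and 16.6 in KO 1 to 3, against 9.3, 5.6 and 7.8 in WT 1 to 3. Among the expressed ones Cyp27a1 was at 0.898 and Cyp2d22 at 0.892, and Cyp51 ran opposite at -0.902.

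**Figure D2:**
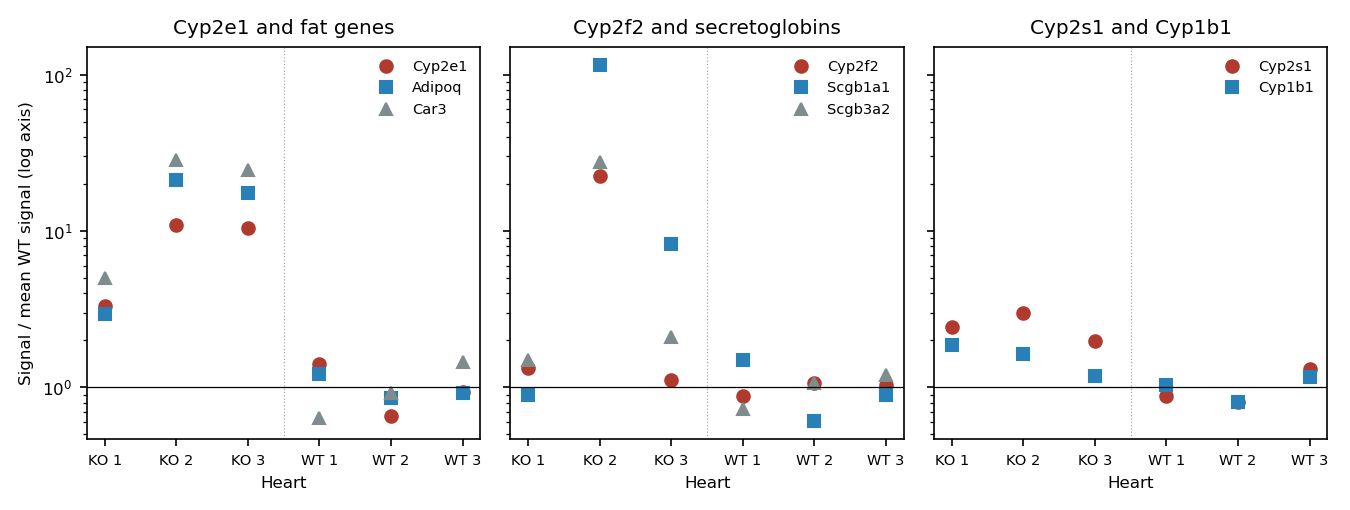
Signal divided by the mean WT signal of the same gene (log axis), for each heart labelled KO and then each WT heart. In the left panel Cyp2e1 and the fat genes Adipoq and Car3 are lowest of the KO-labelled hearts in KO 1; in the middle panel Cyp2f2 is at 22.5-fold in KO 2 and 1.33-fold and 1.12-fold in KO 1 and KO 3; in the right panel Cyp2s1 and Cyp1b1 are above 1 in every heart labelled KO.

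Cyp2f2, a mouse lung enzyme of airway club cells that activates naphthalene, was high in a single heart. It gave 8.4, 142.3 and 7.1 in KO 1 to 3, against 5.6, 6.8 and 6.6 in WT 1 to 3. KO 2 held almost all of the signal, and the other KO-labelled hearts were only just above WT. At 1.00 on the log2 scale (SE 0.339, limma adjusted p = 0.111) it did not pass, and without KO 2 it was 0.089. Without KO 1 or KO 3 it was 1.44 or 1.48 and passed (limma adjusted p = 9.92e-07 and 5.79e-07), as it did without WT 2 (1.02, adjusted p = 0.00304), in fits whose variance was wholly the one shared between genes. The secretoglobin genes of club cells were high in the same heart. Scgb1a1 gave 2.5, 323.5 and 23.2 in KO 1 to 3, against 4.2, 1.7 and 2.5 in WT 1 to 3, and Scgb3a2 gave 9.1, 167 and 12.7 in KO 1 to 3, against 4.4, 6.5 and 7.3 in WT 1 to 3. Of 6 lung epithelium markers 5 were tested, and these 2 were called higher, against 1.77% of all genes. Without KO 2 neither passed (log2 differences of 0.52 and 0.28, limma adjusted p = 0.618 and 0.893), nor with quantile normalization (0.269 and 0.31) or without WT 1 (0.387 and 0.462). The surfactant genes of alveolar cells, Sftpc, Sftpb, Sftpd and Sftpa1, stayed at 22.1 or below in every heart, and in KO 2 at 14.5 or below. The summed signal of the list was 58.2 to 525.9 in the hearts labelled KO and 34.8 to 56 in WT. The part of airway RNA in the Cyp2f2 signal was not tested.

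Cyp1b1, which oxidises oestrogens and aromatic hydrocarbons and is known from stromal cells, gave 96.8, 84.3 and 60.8 in KO 1 to 3, against 53.6, 41.6 and 59.9 in WT 1 to 3. The groups just failed to overlap, with KO 3 at 60.8 beside WT 3 at 59.9. The log2 difference was 0.50 (SE 0.18, 95% interval 0.14 to 0.87, limma adjusted p = 0.138). A second probe set ran the same way at 0.40. The remaining Cyp1b1 probe set was at 0.023. Cyp2d22, a mouse member of a drug-oxidising subfamily, gave 60.8, 71.5 and 86.1 in KO 1 to 3, against 47.8, 41.2 and 58.7 in WT 1 to 3. Its groups did not overlap either, and its difference was 0.44 on the log2 scale (SE 0.177, limma adjusted p = 0.219), or 0.36 on its second probe set. Neither gene passed.

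For Cyp2s1 and the Cyp1b1 probe set read here, KO 1 and KO 2 were the highest of the KO-labelled hearts and WT 3 the highest of WT. The second Cyp1b1 probe set did not share this order. It gave 26.8, 17.3 and 32.3 in KO 1 to 3, against 16.8, 12.9 and 15.5 in WT 1 to 3. The summed signal of the atrial myocyte markers Sln, Myl4, Myl7, Mybphl, Bmp10 and Nppa had the same split as Cyp2s1, although KO 3 was above KO 2 for Bmp10 and highest for Nppa. The sum was 16182, 14948 and 13560 in KO 1 to 3, against 3668, 2922 and 9570 in WT 1 to 3, and 6 of 6 were called higher, against 1.77% of all genes (2 of 6, Bmp10 and Sln, without WT 1). Fibroblast markers summed to 7624 to 9164 in the hearts labelled KO and 5722 to 6897 in WT, with 7 of 7 not overlapping, against 16.2% of all genes, and 1 called higher, the collagen gene Col3a1, which did not pass without KO 3, WT 1, WT 2 or WT 3. With quantile normalization Col3a1 and 3 more passed, Dcn, Lum and Col1a2 (limma adjusted p = 0.0312, 0.00953, 0.0134 and 0.0217). Smooth muscle and pericyte markers summed to 6126 to 8036 in the hearts labelled KO and 4785 to 5718 in WT, with 2 of 6 called higher, Acta2 and Cnn1, neither of which passed without WT 1 (limma adjusted p = 0.135 and 0.37) or with quantile normalization (0.0515 and 0.203), and Cnn1 not without KO 1 (0.0869). Their part in the Cyp1b1 and Cyp2s1 values was not tested.

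Of the remaining expressed genes of families 1 to 3, Cyp2u1, a fatty acid hydroxylase, ranged from 22.1 to 33.1 in the hearts labelled KO and from 18.8 to 29.3 in WT, with a log2 difference of 0.041 (95% interval -0.35 to 0.44). Cyp2c38, of the subfamily that epoxidises arachidonic acid, gave 36.5, 17.4 and 14.2 in KO 1 to 3, against 17.8, 11.9 and 24.1 in WT 1 to 3. KO 1 alone was high, and the log2 difference, 0.16 in all hearts, was -0.080 without it.

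The 4 expressed fatty acid hydroxylases of family 4 did not pass. Cyp4b1, known from lung and blood vessels, gave 220.6, 219.5 and 239.8 in KO 1 to 3, against 210.3, 241.6 and 210.1 in WT 1 to 3. The groups overlapped throughout, and the log2 difference was 0.038 (SE 0.163, 95% interval -0.29 to 0.37, limma adjusted p = 0.963). Cyp4v3 ranged from 29 to 32.1 in the hearts labelled KO and from 28 to 37.9 in WT, and Cyp4f16 from 19.1 to 28.3 in the hearts labelled KO and from 28.3 to 29 in WT. Cyp4a31, of the subfamily that PPARα activates in liver, ranged from 16.6 to 25.3 in the hearts labelled KO and from 19.2 to 35 in WT. Their log2 differences were -0.10, -0.15 and -0.28, with limma adjusted p between 0.649 and 0.895. Cyp4v3 is read from a shared-probe set, whose probes can match more than 1 transcript, and its other probe set was at -0.04.

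Among the sterol enzymes Cyp27a1, the mitochondrial hydroxylase that starts the acidic route of bile acid synthesis, gave 139.3, 146.1 and 170.9 in KO 1 to 3, against 134.7, 112.4 and 123.2 in WT 1 to 3. The groups did not overlap, but KO 1 and WT 1 were close, and the gene did not pass (0.27 on the log2 scale, SE 0.169, limma adjusted p = 0.573). Its other probe set was at 7 or below in every heart and at -0.15. Cyp39a1, an oxysterol hydroxylase, ranged from 19.3 to 26.3 in the hearts labelled KO and from 16.8 to 18.8 in WT (log2 difference 0.20, limma adjusted p = 0.788).

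Cyp51, the lanosterol demethylase of cholesterol synthesis, had the most negative difference of the 15 expressed genes. It gave 20.9, 13.8 and 18.7 in KO 1 to 3, against 33.1, 28 and 29.1 in WT 1 to 3. Every heart labelled KO was below every WT heart, at means of 17.8 ± 3.63 in KO and 30.1 ± 2.68 in WT (SD, n = 3 each). At -0.45 on the log2 scale (SE 0.197, limma adjusted p = 0.291) it did not pass, and its other probe sets were at -0.08 and -0.16. Of 14 other genes of cholesterol synthesis tested 0 passed, with a median of -0.14, against -0.028 over all genes. Of the 14, 11 were negative, beside 7122 of all 12946 genes tested. Fdft1, squalene synthase, had 140 ± 45.5 in the hearts labelled KO and 224 ± 55.2 in WT (log2 difference -0.63, limma adjusted p = 0.0504). Its limma adjusted p was 0.00206 without KO 1 and 0.0994 with quantile normalization. The groups overlapped, with KO 1 at 192.6 and WT 3 at 169.1. Dhcr7, the last reductase of the pathway, was at 0.51 in the other direction (limma adjusted p = 0.138).

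Cyp20a1, an orphan P450 with no settled substrate, ranged from 55.6 to 79.9 in the hearts labelled KO and from 54.6 to 87.5 in WT (log2 difference 0.039, 95% interval -0.33 to 0.40). None of the tested enzymes of steroid hormone, vitamin D and retinoic acid metabolism reached a mean of 20. Of 5 steroid hormone genes 2 were tested and 0 passed, and of 5 vitamin D and retinoic acid genes 2 were tested and 0 passed.

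**Figure D3:**
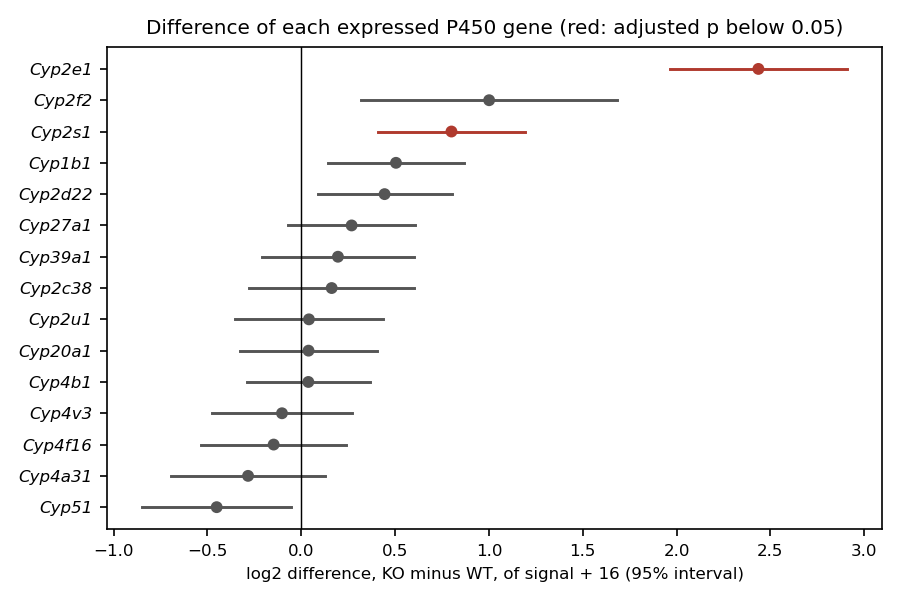
Log2 difference of signal plus 16, hearts labelled KO minus WT, with its 95% interval (horizontal axis) for the 15 expressed P450 genes. Cyp2e1 at 2.44 and Cyp2s1 at 0.80 have an adjusted p below 0.05, and the intervals of Cyp2f2, Cyp1b1, Cyp2d22 and Cyp51 leave out 0 without passing the adjusted threshold.

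Near the threshold of 20 the members inside were Cyp2c38 and Cyp39a1, with means of 20.3 each, and those outside were Cyp26b1 at 17.9, Cyp2j6 at 15.9, Cyp4f13 at 15.6 and Cyp1a1 at 15.5. Cyp26b1, which clears retinoic acid, gave 16.4, 3 and 22.5 in KO 1 to 3, against 26, 19.9 and 19.6 in WT 1 to 3. Cyp2j6, of the epoxygenase subfamily, gave 22.9, 20.7 and 19.3 in KO 1 to 3, against 13.8, 10.6 and 7.9 in WT 1 to 3, with no overlap and a limma adjusted p of 0.326. Its other probe set overlapped, with 2.4, 23.7 and 12.8 in KO 1 to 3, against 7.5, 14.8 and 12.6 in WT 1 to 3 (log2 difference 0.008). Cyp1a1, the classic target of the aryl hydrocarbon receptor, was highest in KO 3 at 42.1 and lay between 5.7 and 15.1 in the other hearts. Of the 16 tested genes below 20, 0 passed in limma over all genes. Their groups did not overlap for 4, beside 16.2% of all genes, namely Cyp2j6 and Cyp2c68 with higher signals and Cyp2b10 and Cyp2j9 with lower signals in the hearts labelled KO; the last 3 are named after their values were seen. The other Cyp2b10 probe sets were at -0.16 and 0.067, against -0.55 on the one read. At such signals a level could not be told from background, since the detection calls were not used here.

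The genes that work with P450 enzymes were read from lists. Of 11 tested genes of electron transfer and haem supply, 0 passed. The smallest p-values were those of Pgrmc1, a haem-binding P450 partner, at 0.27 on the log2 scale (limma adjusted p = 0.555), and the haem oxygenase gene Hmox2 at -0.21 (0.696). Fdx1, the mitochondrial electron carrier, was at -0.013, and cytochrome b5 (Cyb5a) at -0.12; these and Ahr are named for their roles, after their values were seen. Of 13 xenobiotic receptors and regulators 0 passed, with the aryl hydrocarbon receptor gene Ahr at -0.13 its repressor Ahrr at 0.46 (limma adjusted p = 0.337) and the stress regulator Nfe2l2 at 0.24 (0.578). The P450 genes without a Cyp symbol, prostacyclin synthase (Ptgis, 0.47, adjusted p = 0.135) and thromboxane synthase (Tbxas1, -0.08, adjusted p = 0.923), did not pass by limma.

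Of 10 epoxide hydrolase and eicosanoid genes 0 passed. Ephx2, the soluble epoxide hydrolase that removes the epoxides P450 enzymes make, had 885 ± 75.5 in the hearts labelled KO and 1150 ± 124 in WT (SD, n = 3 each), with a log2 difference of -0.37 and a limma adjusted p of 0.176, or 0.0362 with quantile normalization and 0.166 without KO 1. Pla2g4a, which releases arachidonic acid, was at 0.58 (limma adjusted p = 0.123, 0.017 without KO 1 and 0.163 with quantile normalization). Its groups overlapped, with KO 1 at 27.2 and WT 3 at 28.3. Of 8 retinoid genes 0 passed, with Aldh1a2, which makes retinoic acid, at 0.53 (limma adjusted p = 0.115) and the carrier gene Rbp4 at 0.55 (0.151). Of 6 other steroid and bile acid enzymes 0 passed, with Hsd17b4 at -0.35 and Akr1d1 at -0.21.

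Calls lay in the list of conjugation and aldehyde oxidation, where 3 of 16 were higher, 1 lower and 12 did not pass, beside 1.77% higher and 1.13% lower of all genes. Ces1d had 550 ± 85.9 in the hearts labelled KO and 341 ± 19.8 in WT (log2 difference 0.66, limma adjusted p = 0.00897). Sult1a1, a phenol sulfotransferase, had 341 ± 55.4 in the hearts labelled KO and 206 ± 72.5 in WT (0.72, adjusted p = 0.0131). Fmo2, a flavin monooxygenase known from lung, had 194 ± 29.4 in the hearts labelled KO and 121 ± 12.9 in WT (0.61, adjusted p = 0.0307). Gsta4, a glutathione transferase that clears lipid aldehydes, fell to 382 ± 93.2 in the hearts labelled KO, against 577 ± 80.5 in WT (-0.59, adjusted p = 0.0307). With quantile normalization Sult1a1 (limma adjusted p = 0.0977) and Gsta4 (0.0541) did not pass. Each of the 4 lost its call without some hearts: Ces1d without KO 2 (limma adjusted p = 0.129) or KO 3 (0.0863), Fmo2 without KO 1 (0.197), KO 2 (0.0922), WT 1 (0.0862) or WT 2 (0.161), Sult1a1 without KO 3 (0.124), WT 1 (0.219) or WT 3 (0.0918), and Gsta4 without KO 2 (0.238), KO 3 (0.254), WT 1 (0.206) or WT 3 (0.0515). Over the 80 tested genes of all 8 lists 4 passed, 3 higher and 1 lower, beside 2.9% of all genes, with a median log2 difference of -0.0089.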

How the data were processed

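Each deposited file value is an intensity, the linear MAS5 signal of a probe set, per the submitters' processing notes. Scaling target and detection calls were not used here. Values were used as deposited, as log2(signal + 16), which understates changes of dim genes. Of 45099 probe sets 62 are controls, 34945 others have 1 symbol in the platform table, 932 several and 9160 none; only the first were used, and 4 probe sets with several P450 symbols were left out. All 73 members matched the GRCm38 gene table by identifier. Probe sets under the 40th percentile of mean log2 (4.59, a signal of 8.17) were left out, and the brightest remaining one stood for its gene.

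KO was compared with WT over 12946 genes in limma 3.58.1 (R 4.3.3; lmFit, then eBayes with trend), two-sided, Benjamini-Hochberg, threshold 0.05, tested on simulated data. Prior degrees of freedom were 43.4, so p-values rest little on a gene's own spread, and they measure only the spread between these 6 hearts, whose number limits the precision. Values relative to Adipoq were compared by exact permutation (SciPy 1.17.1). Members, lists and tests were chosen with earlier results of these data known. All expressed members are named, with the 4 next below 20, the 2 of smallest p and every called gene in each list, and the 6 genes most like Cyp2e1. Listed genes without a probe set of a single symbol in the files used were not analysed here. Motifs were searched in RefSeq promoter windows. Alternatives were other pseudocounts, scalings, filters, probe set rules, variance models, a replicate block and leaving out each heart.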

Additional observations from a re-analysis of the deposited data

How the results depend on the processing

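The count of genes called over all genes, 375, was 67 with no filter on dim probe sets and 176 with no intensity trend, and between 128 (without WT 1, 106 higher and 22 lower) and 516 (without KO 1) when a heart was left out; without KO 3 it was 208. The count of expressed P450 genes called, 2, was 1 with no filter on dim probe sets (Cyp2e1), 1 with robust empirical Bayes (Cyp2s1), 1 with a mean signal of 40 as the limit for expressed (Cyp2e1), and between 1 and 3 without a heart: Cyp2s1 did not pass without KO 2 or WT 1, and Cyp2f2 passed without KO 1, KO 3 or WT 2. The 4 calls in the pathway lists were 0 with no filter, 0 with no intensity trend, 2 with the mean of a gene's probe sets, and between 1 and 5 without a heart. Of the single values of the 15 genes under alternatives, 253 kept direction and side of the threshold, 7 turned, 4 lost and 3 gained a call. Directions turned for Cyp2c38 (-0.080 to 0.32 without a heart), Cyp4b1 (-0.0010 to 0.10), Cyp20a1 (-0.065 to 0.22) and Cyp2u1 (-0.083 to 0.12), none of which passed. The cause of these changes was not tested. A call lost without a heart need not mean a smaller difference. Adipoq was at 2.72 without WT 1 and 2.58 without WT 2, with limma adjusted p of 0.0617 and 1.95e-32. Members not overlapping relative to Adipoq numbered 13, and 12 to 15 under the alternatives. The labels number mice within genotype. Deviations of equal-numbered hearts correlated at 0.03, -0.016 and 0.028 over genes, and those of unequal-numbered hearts at -0.081 to 0.061. The check cannot show that hearts were unpaired, since the array header of WT 1 numbers it as WT 3. With the replicate block 392 genes and 2 expressed P450 genes passed, so the block changed no P450 call. Dim signals near background limit what the 58 members below 20 can show.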

Other observations

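Genes other than the secretoglobins shared the Cyp2f2 pattern of a single high heart; they are named after their values were seen. By Pearson r over the 6 hearts the nearest was Bpifb1 (0.996), then Scgb3a2 (0.994) and Bpifa1 (0.988). Bpifa1, which encodes a secreted protein of the upper airway epithelium, gave 1, 290.2 and 9 in KO 1 to 3, against 5.6, 5.9 and 7.1 in WT 1 to 3. Bpifb1, of the same protein family, gave 6.2, 53.6 and 6.4 in KO 1 to 3, against 5.7, 5.1 and 7.5 in WT 1 to 3. In each case KO 2 stood alone, and neither gene passed (limma adjusted p = 0.147 and 0.389).

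Of the 7 expressed P450 genes with every heart labelled KO above every WT heart, 4 had KO 1 as the lowest of the hearts labelled KO, as Adipoq did: Cyp2e1, Cyp27a1, Cyp2d22 and Cyp39a1. Some heart has to be lowest, and the share over all genes was not counted. Cyp27a1, Cyp2d22 and Cyp39a1 were highest in KO 3, unlike Adipoq, which was highest in KO 2. Among WT hearts Cyp2d22 was highest in WT 3 and Cyp39a1 in WT 2, while Adipoq was highest in WT 1. Ucp1, the uncoupling protein of brown fat, had 16.7, 49.5 and 2.7 in KO 1 to 3, against 1, 1.8 and 0.7 in WT 1 to 3, an order unlike that of Adipoq, for which KO 3 was near KO 2. Cidea, a lipid droplet gene of brown fat that mouse heart also expressed here, had 187.3, 216.2 and 118.7 in KO 1 to 3, against 297.6, 230.6 and 257.8 in WT 1 to 3, and did not pass (log2 difference -0.58, limma adjusted p = 0.0667), except without KO 1 (adjusted p = 0.044).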
